A study of Cucumis melo with 4 samples.

Results

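The loci described here are 3149 transcribed regions of the muskmelon (Cucumis melo) genome that carry no gene identifier and lie on scaffolds of the assembly. They were chosen by their entries alone: the gene field of both deposited tables holds a dash, and the region is on a scaffold and not on an unplaced contig. They make up 3149 of the 32625 loci listed. Beside them stand 25827 loci on scaffolds that carry 1 identifier, and 777 unannotated loci on contigs that were not used. Total RNA was isolated and sequenced from plants of 2 cultivars, BXC and YL, each as an unstressed control and under salt stress, with 1 library for each of the 4 groups. All plants grew under 14 h of light, at 28 °C in the day and 24 °C at night. Stressed plants were watered with sodium chloride raised by 75 mM a day, and 150 and 300 mM are given as the final levels. The sources used here name neither the tissue nor the final level of each stressed library, so tissue markers could not be checked.

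A transcriptome assembly lists a locus without an identifier where reads pile up outside the genes of the reference annotation. Such regions are known to include genes that the annotation missed, long non-coding RNAs, transcripts of transposable elements, and pieces of a neighbouring gene's untranslated ends or introns. In plants under salt stress both coding and non-coding transcripts are known to respond.

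Each table compares 2 libraries: table B by its letter belongs to BXC and table Y to YL. Column headings do not name the library that came from stressed plants. Every fold is therefore read as the authors deposited it, as log2 of second over first library, and cannot be assigned to salt or control. The per-library levels could not be tied to a sample and were not used. No group has a replicate, so no difference below was tested against the spread between plants, and the counts describe 4 single libraries. Read depth is unknown. The regions have coordinates of an assembly named CM3.5, for which no genome was used here, so no sequence is shown.

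The unannotated loci were short and lay mostly outside annotated genes. The 2631 whose region is listed for no other locus had a median length of 865 bp, with quartiles of 513 and 1536 bp. The corresponding 20967 loci with 1 identifier had a median of 1945 bp and quartiles of 576 and 3820 bp. Lengths over 500 and up to 1000 bp were the most frequent class among the unannotated loci, with 885 loci or 33.6%, whereas 12.2% of loci with 1 identifier fell there. Only 3.31% of the unannotated loci were over 5000 bp, against 15.2%. The shortest, XLOC_011779 on scaffold00013 (positions 4407314 to 4407412), spanned 99 bp, and the longest with a region of its own, XLOC_005536 on scaffold00005 (3184702 to 3236831), spanned 52130 bp.

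The other 518 unannotated loci share their exact region with at least 1 further locus, and 378 of these, 12.0% of all 3149, share it with a locus that holds an identifier. No unannotated locus overlapped an identified locus in any other way: all 378 overlaps were exact matches of both ends, and 0 were partial. Loci with 1 identifier were alike in this, since 4770 of them, or 18.5%, overlapped another identified locus and all 4770 overlaps were exact. Counted once per locus, the regions of these 518 loci had a median length of 17666 bp. The tables do not give the extent of a single locus within a shared region. Whether the transcripts themselves overlap, in part or in full, thus cannot be read from these matches. The 378 loci lie in 256 regions that hold 525 identified loci. Of them, 164 share a region with 1 identified locus and 214 with 2 or more. The most crowded case is XLOC_023250 on scaffold00043 (1038885 to 1307583), which shares a region of 268699 bp with 17 identified loci and has the longest region of all. The remaining 140 share a region with other unannotated loci only.

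Separate unannotated loci stood farther from identified loci than loci with 1 identifier stood from other identified loci. Over 2697 unannotated loci the median distance to the nearest identified locus was 3829 bp, with quartiles of 1464 and 9675 bp. Over 20709 loci with 1 identifier the median distance to the nearest other identified locus was 2069 bp, with quartiles of 830 and 6254 bp. Some identifiers are listed at several loci, so the latter need not be a distance between genes. Of all unannotated loci, 847 were under 2000 bp from an identified locus, 1571 between 2000 and 20000 bp, and 279 over 20000 bp away. Identified loci flanked 2599 of the 2697 separate loci on both sides. A further 74 unannotated loci were on 64 scaffolds that list no identified locus at all. The most distant was XLOC_030654 on scaffold00103 (351028 to 351792), which lay 125423 bp from its nearest identified locus.

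**Figure D1:**
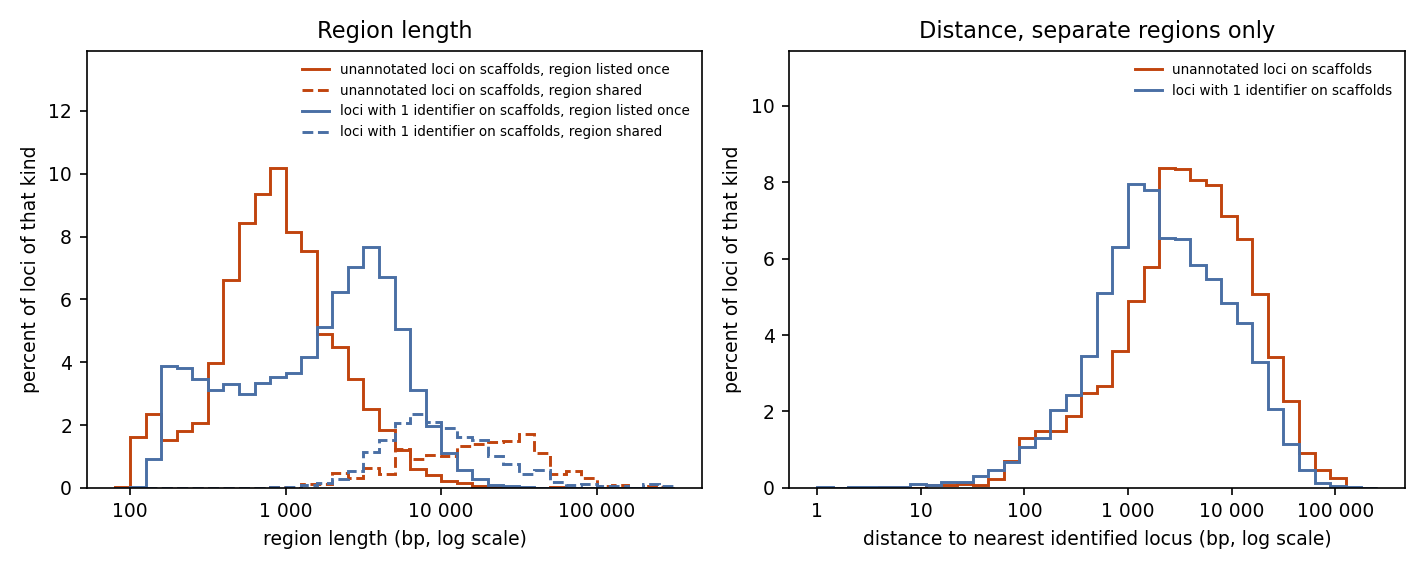
Region length (left) and distance to the nearest identified locus (right), both in bp on log scales, as the percent of loci of each kind on scaffolds: unannotated loci in red, loci with 1 identifier in blue, shared regions dashed. Unannotated loci listed once peak near their median of 865 bp, and their distances (median 3829 bp) lie to the right of those of loci with 1 identifier (median 2069 bp).

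Unannotated loci occurred on 206 of 574 scaffolds. On the 51 scaffolds with 200 or more loci, they made up between 5.03% and 23.9% of the loci, with a median of 9.40%. The highest share was on scaffold00015, where 69 of 289 loci carry no identifier, and the lowest on scaffold00060, with 15 of 298.

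Whether a locus was tested differed sharply between the tables for unannotated loci. The authors' deposited table for Y gives a status of OK, meaning that a test was made, for 2993 of the 3149, or 95.0%, and the table for B for 1492, or 47.4%. Loci with 1 identifier on scaffolds had this status at 65.9% in Y and 55.1% in B. Those in the third row block, described below, had it at 98.2% in Y and 50.2% in B. In all, 1402 unannotated loci were tested in both tables, 1591 in Y only, 90 in B only and 66 in neither. Of the 1657 that were not tested in B, 641 have a deposited fold of exactly 0 there, and 486 have the placeholder for a value of 0 in the first library against 79 with that for the second. The loci tested in Y only stood apart within Y: 875 of the 1591, or 55.0%, were listed at 0 in its first library and 36 in its second. Their finite folds, 680 in number, had a median log2 of 1.76. Among 3022 loci with 1 identifier tested in Y only, 27.5% were at 0 in the first library.

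In table B the unannotated loci with a finite fold were nearly balanced, while those at 0 in one library leaned to one side. Of 1139 finite folds, 342 were higher by 2-fold or more in the second library; the share among all loci of the table was 22.0%. Lower by 2-fold or more were 285, where the share among all loci was 26.2%. At any size 589, or 51.7%, were higher, against 45.9% of all loci. At 4-fold the shares were 14.9% higher, against 10.2% of all loci, and 10.4% lower, against 11.2%. The median log2 fold was 0.07, with an upper quartile of 1.25, where loci with 1 identifier had a median of -0.14. Of 1492 tested unannotated loci, 291 or 19.5% were listed at 0 in the first library, against 6.24% of all tested loci, and 62 or 4.16% in the second, against 2.85%. With these counted, 59.0% of the tested unannotated loci were higher in the second library, against 48.0% of all tested loci.

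In table Y both the finite folds and the loci at 0 leaned to the second library. Of 1817 finite folds, 831 or 45.7% were at least 2-fold higher there, against 23.7% of all loci in the table, and 397 or 21.8% were at least 2-fold lower, against 32.3%. At any size 1134, or 62.4%, were higher, against 42.2% of all loci. At 4-fold, 572 or 31.5% were higher, against 14.1% of all loci, and 221 or 12.2% lower, against 16.8%. The median log2 fold was 0.75, with quartiles of -0.76 and 2.46, where loci with 1 identifier had a median of -0.37. Listed at 0 in the first library were 1114 of 2993 tested loci, or 37.2%, against 11.9% of all tested loci, and in the second 62 or 2.07%, against 2.19%. Counting them, 75.1% of the tested unannotated loci were higher in the second library, against 48.2% of all. The lean was widespread along the genome: on the 51 large scaffolds the share of tested unannotated loci at 0 in Y's first library ran from 21.9% to 55.2%, and the median of the finite folds was above 0 on 43 of them. In B that median was above 0 on 31 of the 51.

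**Figure D2:**
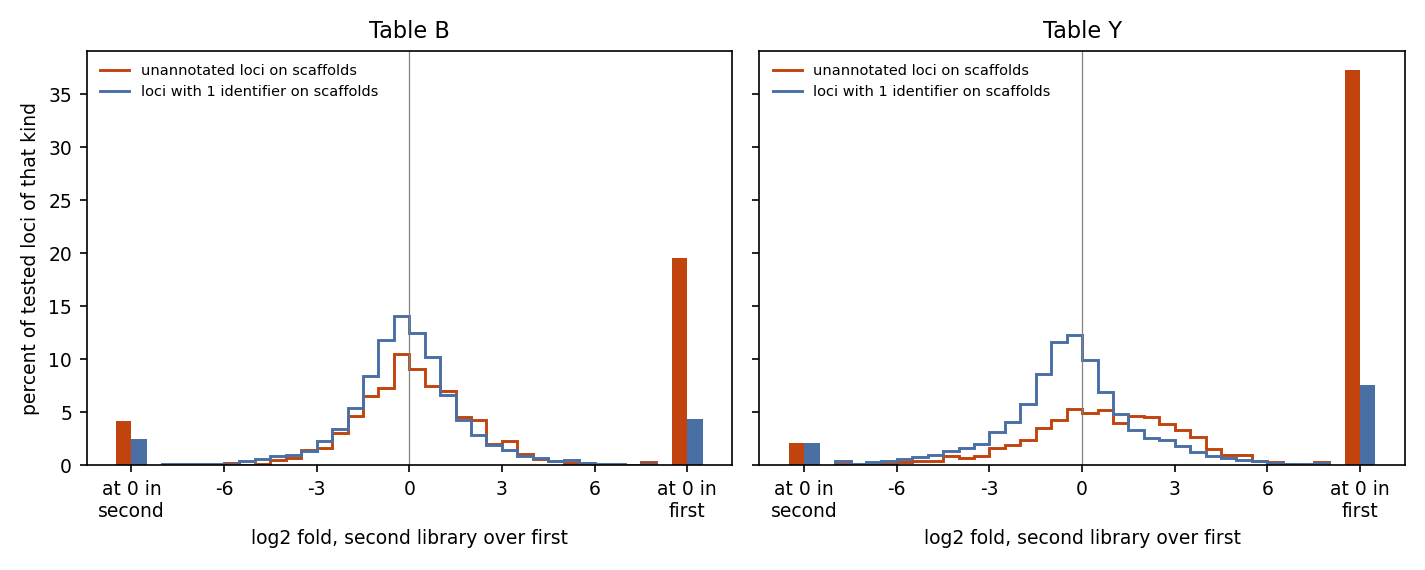
Distribution of the authors' log2 folds, second library over first, in tables B and Y, as the percent of tested loci of each kind; the bars at the ends are loci listed at 0 in the second or in the first library, and folds beyond 8 in size are counted in the outermost bins. In Y 37.2% of the unannotated loci (red) are at 0 in the first library, against 7.54% of loci with 1 identifier on scaffolds (blue).

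The order of the rows separated the unannotated loci into groups that differed in these measures. Within a scaffold the rows of the tables run by start position in up to 3 successive blocks, each starting again at a lower position. Neither a strand nor the meaning of the blocks is recorded in the tables, and the split was chosen after the folds had been seen. On the 124 scaffolds with 3 blocks, loci with 1 identifier fell almost equally into the first and second blocks (46.0% in each), with 2032 in the third. Of 3040 unannotated loci on these scaffolds, 417 were in the first, 425 in the second and 2198, or 72.3%, in the third. Those 2032 loci also stand out, since for 91.7% of them the same identifier is listed at another locus, against 8.93% in the first block and 8.23% in the second. Unannotated loci of the third block with a region of their own were shorter, with a median of 712 bp against 2096 and 2143 bp.

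The lean of table Y was larger in the third block than in the others. There 46.5% of the tested unannotated loci were at 0 in the first library of Y, and the median of 1095 finite folds was 1.46. In the first and second blocks together 12.8% were at 0, and 654 finite folds had a median of -0.02, with 49.4% higher. In the first and second blocks the unannotated loci lay above loci with 1 identifier. Of the latter, 3.45% were at 0 in Y's first library and 36.0% of the finite folds were higher. In the third block the finite folds of unannotated loci lay below those of loci with 1 identifier, with 70.2% against 86.5% higher. The share at 0 in Y's first library there was 46.5% against 37.9%. Loci with 1 identifier differed between the blocks in the same direction, with medians in Y of 2.37 in the third block and -0.48 in the first and second together. In B the unannotated loci had medians of 0.36 in the third block and -0.07 in the first and second, and 28.6% against 6.32% were at 0 in the first library. Loci with 1 identifier in the third block had a higher median in B, at 0.94. Of those tested in B, 29.1% were at 0 in the first library, near the 28.6% of unannotated loci. In the first and second blocks 2.40% of loci with 1 identifier were at 0 there. Block and status go together as well: 39.3% of the unannotated loci of the third block were tested in B, against 67.4% in the first and 68.0% in the second. In Y 95.9% of those of the third block were tested. Loci with 1 identifier in the third block had a like gap, with 50.2% tested in B and 98.2% in Y.

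Length differed together with block, so the blocks were also compared at like lengths, among loci listed once. Over 500 and up to 1000 bp the Y medians of unannotated loci were 1.45 in the third block, over 271 finite folds, and 0.18 in the first and second, over 70. Over 1000 and up to 2000 bp they were 1.63 over 219 folds and -0.01 over 147, and above 2000 bp they were 1.05 over 70 folds and -0.19 over 306. The third block was thus higher in each of these 3 length classes. Up to 500 bp the order of the finite folds was the other way, at 0.19 over 306 folds against 0.81 over the 19 folds that the first and second blocks hold there. In B the third block was likewise higher in the 3 classes above 500 bp and lower in the shortest, at -0.00424 over 233 folds against 0.80 over 11. Loci at 0 in the first library are left out of these medians. Up to 500 bp, 244 of 563 tested loci of the third block were at 0 there in Y, against 6 of 27 in the other blocks. In B these were 124 of 393 against 4 of 16. The finite folds of the shortest regions, up to 200 bp, had negative medians in both tables, -0.41 in B over 104 folds and -0.31 in Y over 130. Loci at 0 leaned the other way. In Y 39 of 173 tested loci of this length were at 0 in the first library and 4 in the second. In B these were 30 and 17 of 151. How far length, block and the depth of each locus contribute to the lean was not tested.

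**Figure D3:**
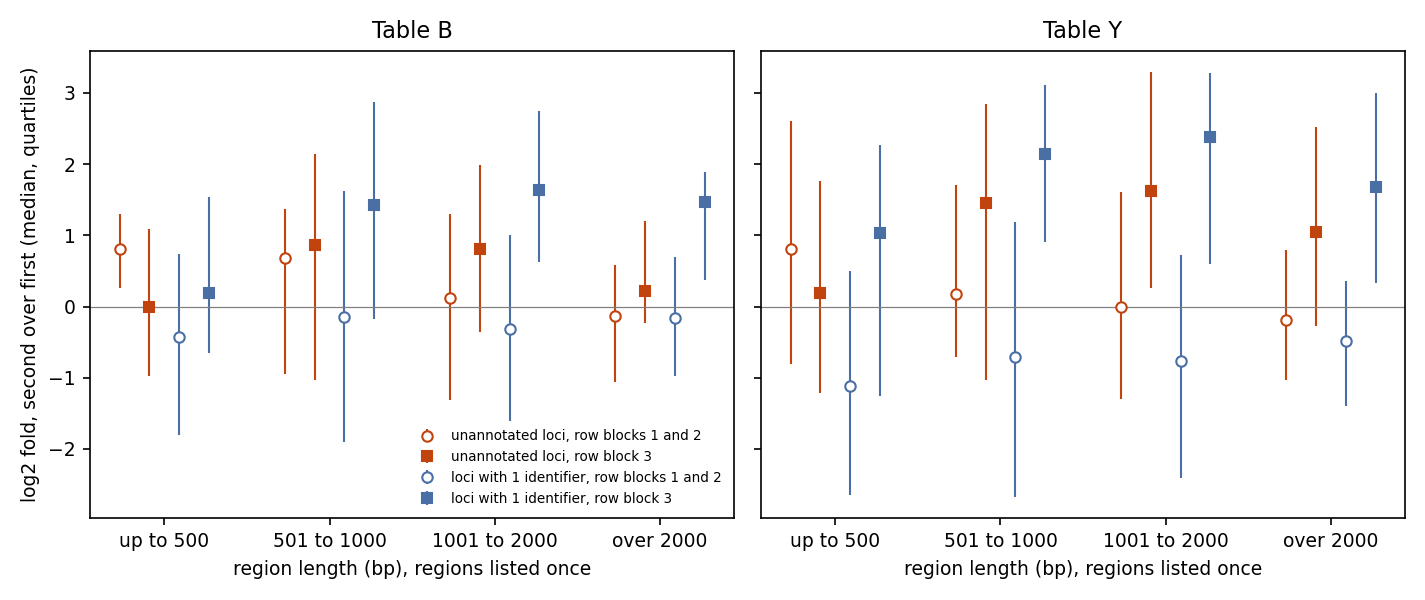
Median log2 fold, second library over first, with lower and upper quartiles as bars, by region length for loci listed once on scaffolds with 3 row blocks; red marks unannotated loci, blue loci with 1 identifier, open circles the first and second blocks together and filled squares the third. In table Y, above 500 bp, the squares lie above the circles of the same colour in each length class: for unannotated loci over 1000 and up to 2000 bp the medians are 1.63 against -0.01.

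Where a fold existed in both tables, the tables mostly pointed the same way. The 1006 unannotated loci with finite folds in both had medians of 0.01 in B and 0.08 in Y, and 52.0% were higher in Y. All 15552 loci with both folds had a median of -0.38 in Y, and 38.7% were higher. Of the 1006, 745, or 74.1%, had the same direction in both tables, against 79.3% of 12973 loci with 1 identifier. Across these loci, which are not independent replicates, Pearson's r was 0.698 and Spearman's rho 0.636, against 0.786 and 0.768 for loci with 1 identifier. With a limit of 2-fold in both tables, 187 were higher in both second libraries, 152 were lower in both, and 38 went in opposite directions. Among all 15552 loci the order was the other way, with 2007 higher, 3173 lower and 272 opposite. Loci at 0 were compared likewise: 273 unannotated loci tested in Y were listed at 0 in B's first library. Of these 264 were higher in Y's second library, 179 of them being at 0 in its first. That share of 96.7% was near the 92.0% of all loci and the 91.5% of loci with 1 identifier. None of the 273 was at 0 in Y's second library, against 13 of 1012 among all loci. The reverse, at 0 in B's second library and in Y's first, held for 7 of 58 unannotated loci. Among all loci it held for 39 of 400.

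The authors' test called 9 of the unannotated loci, all with a region of their own and between 266 and 3008 bp long. In B 1 was higher in the second library and 1 lower at a q-value under 0.05, which is 0.0670% of those tested in each direction, against 0.210% and 0.204% of all tested loci. In Y 5 were higher and 4 lower, or 0.167% and 0.134%, against 0.185% and 0.330%. The shares called were thus no higher than in the whole table. Both loci called in B were also called in Y, with the same direction.

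XLOC_028364 on scaffold00070 (896212 to 897263) was the called locus with the largest difference. In the authors' deposited tables its second library exceeded the first 181-fold in B (log2 7.50, q-value 0.0464) and 1443-fold in Y (log2 10.50, q-value 0.0112). Its nearest identified locus, MELO3C024766, lay 17608 bp away and was at 0 in the first library of both tables, so locus and neighbour pointed the same way; in B the neighbour was not tested. XLOC_016458 on scaffold00022 (1993487 to 1994287) was the called locus lower in both. In the authors' deposited tables it was 91.5-fold lower in B (log2 -6.52, q-value 0.0499) and 592-fold lower in Y (log2 -9.21, q-value 0.0111). Its nearest identified locus, MELO3C014349 at 5850 bp, was tested in neither table.

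Of the 7 loci called in Y alone, 4 were higher in its second library. In the authors' deposited table for Y, XLOC_018024 on scaffold00026 (3069435 to 3072442) was 1013-fold higher with a q-value of 0.00270, the smallest among the unannotated loci. In the authors' deposited table for B it has no test and a log2 fold of 0.57; the difference between the tables was not tested. Its neighbour MELO3C015881, 5018 bp away, had log2 folds of 2.14 in B and -1.33 in Y in the authors' deposited tables. XLOC_031105, at the start of scaffold00228 (3 to 541), was 732-fold higher in the authors' deposited table for Y, with a q-value of 0.00477. XLOC_016765 on scaffold00023 (1302702 to 1303888) was 196-fold higher in that deposited table of the authors, with a q-value of 0.0242, and its neighbour MELO3C014786 at 6606 bp had log2 0.27 there. The neighbour of XLOC_031105, MELO3C027065 at 7563 bp, was tested in neither table. B's first library listed both unannotated loci at 0. XLOC_010996 on scaffold00011 (3222006 to 3223968) was 228-fold higher in the authors' deposited table for Y, at log2 7.83 and a q-value of 0.0331, and had log2 4.89 in B with a q-value of 0.385. It lies 743 bp from MELO3C009574, whose log2 folds in the authors' deposited tables were 3.41 in B and 5.54 in Y, also higher in both.

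The other 3 had lower values in Y's second library. XLOC_022676 on scaffold00040 (2618234 to 2618499) was 620-fold lower in the authors' deposited table, with a q-value of 0.00527. XLOC_007508 on scaffold00006 (1040151 to 1040532) was 256-fold lower in the authors' deposited table, with a q-value of 0.00842. Both were at 0 in the second library of B. Their nearest identified loci did not share this direction: MELO3C019979, 15436 bp from the former, had log2 folds of 0.17 and 0.48 in the authors' deposited tables for B and Y, and MELO3C006098, 592 bp from the latter, had 1.74 and 0.57. XLOC_023479 on scaffold00044 (1763742 to 1765973) was 83.0-fold lower in the authors' deposited table for Y, at log2 -6.37 and a q-value of 0.0403, and 28.4-fold lower in B, where the q-value was 0.0933. It lies 411 bp from MELO3C020637, which was lower in both of the authors' deposited tables, at -1.99 in B and -3.07 in Y.

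**Figure D4:**
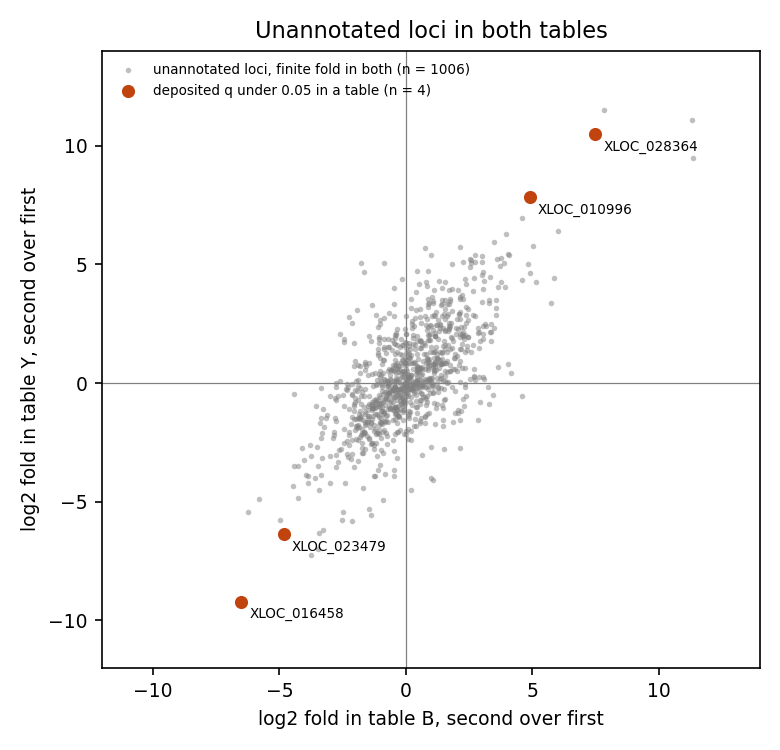
Log2 folds of the 1006 unannotated loci whose fold was finite in each table, second library over first, table B on the horizontal and table Y on the vertical axis. Most points lie in the lower left and upper right parts (745 of 1006); the 4 red points are the loci with a deposited q-value under 0.05 in at least 1 table and a finite, tested fold in both.

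The size of a fold did not decide whether a locus was called. In Y 24 unannotated loci had finite folds at least as large as the smallest called, a log2 of 6.37 in size, and 4 had larger folds than any that was called. XLOC_027554 on scaffold00065 (755655 to 755791), a region of 137 bp singled out after its value was seen, has the largest of all, a log2 of 18.83 in the authors' deposited table for Y with an unadjusted p-value of 0.941. XLOC_020524 on scaffold00032 (3349084 to 3349869), singled out likewise, has the largest in B, at log2 11.38 and a q-value of 0.9999 in the authors' deposited table; its Y value was 9.48 (q-value 0.164). XLOC_031087, at the start of scaffold00201 (3 to 2599), is the only locus of the Y table with the status HIDATA, which in the output of the program Cuffdiff marks a region with too many reads to process. The sources used here do not say that this program made the tables. Its fold in the authors' deposited table for Y is given as 0, and its log2 fold in B was -3.53 (q-value 0.9999).

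The direction of an unannotated locus matched that of its nearest identified locus about as often as not. Both had finite folds at 659 loci in B, where 53.0% shared a direction, and at 1187 in Y, where 50.6% did. For loci with 1 identifier and their own nearest identified locus the shares were 54.4% and 54.4%. The unannotated loci were higher in the second library more often than their neighbours, 64.4% against 40.9% in Y, and centring both on the median of all loci brought the share with the same direction in Y to 55.2%. Across the pairs, which are not independent replicates and share their 2 libraries, Pearson's r was 0.174 in B and 0.194 in Y, and 0.157 and 0.163 for loci with 1 identifier. Among pairs in which both were at least 2-fold different, 63.0% of 165 in B and 58.3% of 408 in Y had the same direction.

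Pearson's r fell with distance in both tables up to 20000 bp, whereas the share with the same direction had no common order. In shared regions r was 0.364 in B over 89 pairs and 0.360 in Y over 200 pairs. Loci with 1 identifier in shared regions had 0.335 and 0.193. Pearson's r was 0.255 in B over 255 pairs and 0.222 in Y over 412 pairs under 2000 bp apart, and 0.0665 over 271 pairs and 0.111 over 506 pairs at 2000 to 20000 bp. Beyond 20000 bp it was 0.0371 over 44 pairs and 0.313 over 69, so Y showed no steady decline. Loci with 1 identifier had 0.0841 and 0.119 under 2000 bp. Close neighbours were also read by the direction of the unannotated locus. Where an unannotated locus under 2000 bp away was at least 2-fold lower in Y, 43 of 93 neighbours were at least 2-fold lower and 8 at least 2-fold higher. Where it was at least 2-fold higher, 43 of 171 neighbours were at least 2-fold higher and 48 at least 2-fold lower. For comparison, 148 unannotated loci that differed less than 2-fold had 33 such higher and 35 such lower neighbours. At all distances, 382 loci of this kind in Y had 82 such higher and 123 such lower neighbours. Of the unannotated loci at 0 in the second library of Y, 36 had a neighbour with a finite fold, at any distance. Among these neighbours 27 were at least 2-fold lower, and the median log2 of the 36 was -2.69. Of those at 0 in the first library of Y, 674 had such a neighbour, and 210 of the neighbours were at least 2-fold higher and 151 at least 2-fold lower. Under 2000 bp these were 83 and 50 of 216 in Y, and in B 20 and 8 of 49, so neighbours of loci at 0 in the first library were more often higher than lower there.

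**Figure D5:**
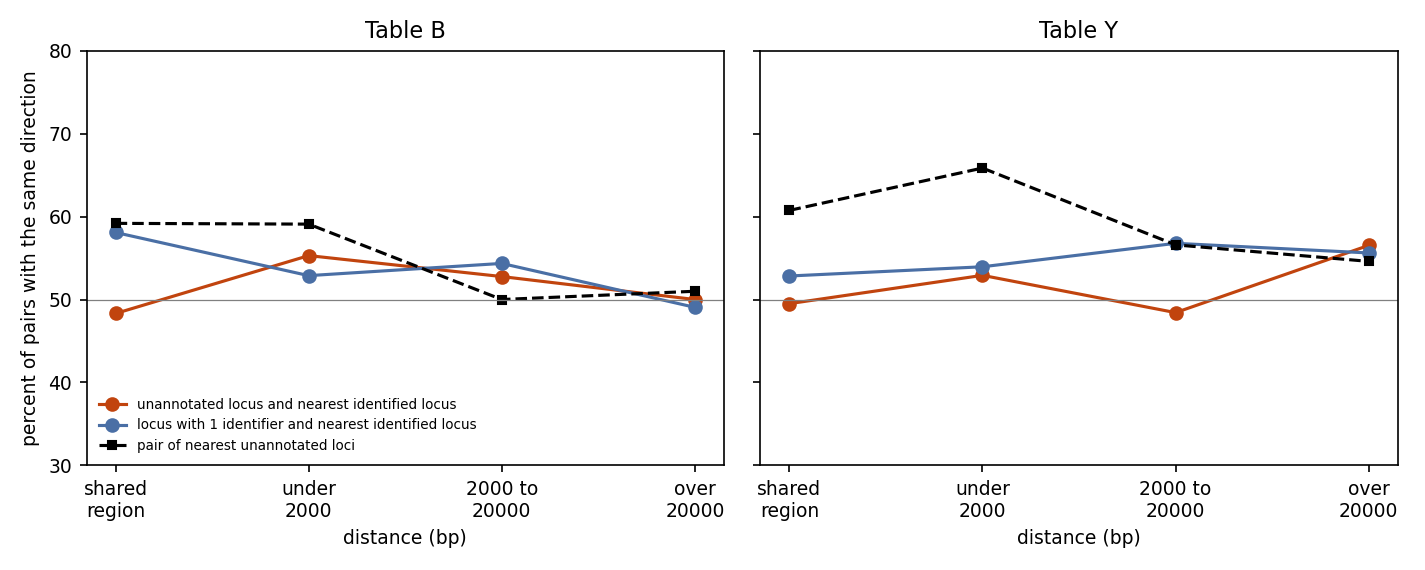
Percent of pairs whose finite log2 folds had the same sign, by distance between the regions, for an unannotated locus and its nearest identified locus (red), a locus with 1 identifier and its nearest identified locus (blue), and a pair of nearest unannotated loci (black, dashed). The highest value is that of unannotated pairs under 2000 bp apart in table Y, at 65.9% of 205 pairs, and the grey line marks 50%; the vertical axis runs from 30 to 80.

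Unannotated loci that share a region with identified loci had the highest medians of the distance classes in both tables. In Y the 223 with a finite fold had a median log2 of 2.50, and 86.1% were higher in the second library, while the 358 identified loci of the same regions with a fold had a median of 0.11. In B the medians were 0.88 over 104 folds and -0.22 over 302. Row block moved with this contrast: 302 of the 378 are in the third block, where loci with 1 identifier in shared regions had like values, with medians of 2.47 in Y, 89.0% of them higher, and 0.92 in B. The part of the block was not tested. Taking each unannotated locus with each identified locus of its region, the former had the higher fold in 233 of 312 pairs in Y and in 92 of 146 in B. The direction was the same in 182 of these pairs in Y, or 58.3%, and in 75 in B, or 51.4%. The shares by distance above take only the first listed identified locus of a shared region, which gave 49.5% in Y and 48.3% in B. Among the 33 loci that share a region with exactly 1 identified locus and have all 4 folds, the direction was the same at 17 in B and at 18 in Y. Only XLOC_021347 on scaffold00035 (860249 to 863432) was at least 4-fold different together with its partner in both tables. In the authors' deposited tables its log2 folds were 4.90 in B and 4.63 in Y, and those of the partner MELO3C018916 were 2.85 and 2.78. In none of the 33 did the pair differ at least 4-fold in opposite directions in both tables, and 1 did so at 2-fold. In a shared region the reads of different loci may not be told apart, and their part in these values was not tested.

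Pairs of nearest unannotated loci agreed more often with each other than with identified loci when close together. Each pair was counted once, and 500 such pairs had separate regions under 2000 bp apart. In Y 135 of 205 pairs with folds, or 65.9%, had the same direction, with a Pearson's r of 0.431, and in B 52 of 88, or 59.1%, with 0.387. Pairs over 20000 bp apart had the same direction at 54.6% of 337 in Y and 51.0% of 151 in B, with r of 0.01 and -0.06. The tables do not record whether close loci are pieces of 1 transcript, and this was not tested. Successive unannotated loci that Y's first library listed at 0 also formed stretches, on scaffolds where such loci were frequent. The longest held 10 on scaffold00015, where 34 of 67 tested unannotated loci, or 50.7%, were at 0, between 3768626 and 5101987, of which 4 were tested in B and were at 0 in its first library too. The stretch also contains 51 identified loci, 24 of them tested in Y, and 23 of those had finite folds with a median log2 of 0.02. A stretch of 8 followed on scaffold00009, where 42 of 77 or 54.5% were at 0, between 5723194 and 5935949, where none of the 8 was tested in B.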

How the data were processed

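Total RNA of 4 plant groups was made into Illumina libraries, per the labels' protocols. The submitters' processing notes list CASAVA and TopHat2 with no version; the sources used here name no quantification tool. Per the file headers, the deposited tables hold for each locus a region, an identifier, a status, and the authors' log2 fold, p-value and q-value. The fold column also holds a placeholder for an infinite log2 fold, deposited where 1 library is at 0. The 4 columns of per-library values carry no sample name and were not used, so level limits, pseudocounts and the parts of the naming rule that rank levels were not run. None of the 27427 identifiers matched the reference table supplied.

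Regions start at 0 for 207 loci, so 1 was added to each start. Members were matched to the nearest locus with an identifier on the same scaffold, with ties going to the first row. An overlap needed 1 shared base. Fold summaries took finite values of loci whose status was OK. The named loci are those with a deposited q-value under 0.05, those at least 4-fold different together with a sole overlapping identified locus in both tables, and the longest, shortest and most distant; others are marked. The members, lists and measures were chosen with earlier results of these data known. Python 3.11.15, numpy 2.4.6, pandas 2.3.3, scipy 1.17.1 and matplotlib 3.10.9 were used, and the matching and counting steps were tested on simulated data. Alternatives were the 4-fold limit, centring, counting loci at 0, leaving out shared regions, other q-value limits and other choices of neighbour. Depth is unknown, so no interval on counts is given.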

Additional observations from a re-analysis of the deposited data

Results flagged for a closer look

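The 2 cultivars' tables went in opposite directions by at least 4-fold at 4 of 1006 unannotated loci, against 37 of all 15552 loci with both folds, and none of these differences was tested, as no group has a replicate. In the authors' deposited tables, XLOC_003698 on scaffold00001 (3064299 to 3065241) had log2 folds of 2.15 in B and -2.74 in Y, and its neighbour MELO3C002374, 94 bp away, had a 0 in B's first library and log2 3.17 in Y. The other 3 were lower in B and higher in Y in the authors' deposited tables: XLOC_015842 on scaffold00021 (-2.24 and 2.78), XLOC_021414 on scaffold00035 (-2.61 and 2.07) and XLOC_022376 on scaffold00039 (-2.14 and 2.52). XLOC_015842 and XLOC_021414 lie in regions shared with other loci. The q-values of the 4 in the authors' deposited tables ran from 0.886 to 0.9999 in B and from 0.724 to 0.99999 in Y.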

How the results depend on the processing

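Of 55 alternative values over 14 results, 26 stayed within the limits set (counts within 1.5 times; shares and medians within their 95% binomial interval over loci, which does not cover plants), 26 moved and 3 reversed. The lean to the second library depended most on which loci were taken. The median log2 fold in Y was 0.75 over all finite folds, 0.18 where both tables had a test, 0.50 without shared regions, 0.38 over 2000 bp from an identified locus and -0.0194 in the first and second row blocks, and was 1.04 when centred. In B it was 0.21 when centred, -0.0011 over 2000 bp from an identified locus and -0.0666 in the first and second blocks. The 4-fold limit gave 170 higher and 118 lower loci in B, and 221 lower in Y. With loci at 0 counted, 633 of 1492 tested loci were at least 2-fold higher in B and 1945 of 2993 in Y. Among the same tested loci, the q-value limit of 0.01 left 0 called loci in B and 4 in Y, and that of 0.1 gave 9 and 22. The shares of all loci were not computed for the counts with loci at 0 or at these q-value limits. The share with the direction of the nearest identified locus was 63.0% in B and 58.3% in Y when both differed at least 2-fold, 48.3% in shared regions of B, 56.5% over 20000 bp away in Y, 55.2% when centred in Y and 54.6% with loci at 0 counted in Y. The share with the same direction in both tables was 89.9% at 2-fold and 78.7% with loci at 0 counted. Without shared regions the median distance was 3904 bp instead of 3045 bp (shared regions at 0), the share overlapping an identified locus 0% by construction, and the median length 865 bp instead of 1056 bp; among loci tested in both tables it was 1140 bp. The causes were not tested, apart from those set by construction. The alternatives on row blocks, on the distance of 2000 bp, on neighbours with 1 identifier, on loci at 0 for shares and on centring for the comparison of the tables were chosen after seeing the data. Alternatives that need levels were not run. No paired analysis was possible because every group holds a single library and no column names its treatment.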
